A study of Saccharomyces cerevisiae with 7 samples.

Results

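The nuclear respiratory chain genes of budding yeast are 39 genes that code for the parts of the mitochondrial electron transport chain and of the ATP synthase. They were chosen by name, as the listed subunits of 5 complexes or enzyme classes together with both cytochrome c genes and the lactate dehydrogenase that feeds them. All 39 had measured windows, out of 5781 open reading frames (ORFs) in all. The group holds 4 genes of succinate dehydrogenase, 9 of the cytochrome bc1 complex, 8 of cytochrome oxidase, 12 of the ATP synthase, 3 NADH dehydrogenases, and *CYC1*, *CYC7* and *CYB2*.

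RNA polymerase II (RNAPII) was mapped by chromatin immunoprecipitation and sequencing (ChIP-seq) in isogenic *Saccharomyces cerevisiae* strains of the W303 background, using an antibody to the repeated C-terminal tail of the enzyme. The 3 genotypes were WT with no deletion, *rtt109Δ*, which lacks the acetyltransferase that modifies lysine 56 of histone H3, and *rrp6Δ*, which lacks a nuclear subunit of the RNA exosome. Cultures were asynchronous, in log phase, and grown in rich medium with 2% glucose at 30 °C. There were 2 immunoprecipitated (IP) libraries per genotype and 1 input library for all, and the deposited data were 1 track per genotype of the ratio of IP to input. The replicates had been combined, so no spread between them could be measured, every difference below compares single tracks, and no test was possible.

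Respiratory chain proteins pass electrons from NADH or succinate through coenzyme Q and cytochrome c to oxygen, and electrons from lactate enter at cytochrome c. The proton gradient that results drives the ATP synthase. *S. cerevisiae* has no proton-pumping complex I and uses single-polypeptide NADH dehydrogenases instead. A few core subunits are encoded in mitochondrial DNA, whereas the genes described here are nuclear and are transcribed by RNAPII. Many of them are known to be held down by glucose and activated by the Hap2/3/4/5 complex when glucose is exhausted.

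Each value is the mean ratio of IP to input over the 100 bp windows, spaced 50 bp, that were centred in an ORF, or in the 300 bp before its start codon, called upstream here. Each track had a median of 1 over all windows, so a value of 1 means the level of the middle window of the genome. The deletions were visible in the tracks. *RTT109* had 0.0178 in *rtt109Δ* against 1.36 in WT and 1.29 in *rrp6Δ*, and *RRP6* had 0.118 in *rrp6Δ* against 1.01 in WT and 1.08 in *rtt109Δ*.

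Over their ORFs the respiratory chain genes had lower ratios of IP to input than the middle ORF. The group median stood at 0.823 in WT, 0.778 in *rrp6Δ* and 0.903 in *rtt109Δ*, against 0.974, 0.983 and 0.943 over all 5781 ORFs. In WT 30 of the 39 lay below the median of all ORFs, and 25 did so in all 3 tracks. The share of all ORFs that did so in all 3 tracks was not counted. The range in WT was wide, from 0.452 over *QCR6*, which codes for the acidic hinge subunit of cytochrome bc1, to 1.98 over *QCR8*, which codes for a small subunit of the same complex. Of the 39, 15 were among the lowest 20% of all ORFs in WT, whereas *QCR8*, *ATP20* and *COX7* were among the highest few percent, so the complexes were not uniform.

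The levels followed ORF length among these genes. The 11 members of at least 900 bp all lay below the median of all ORFs, with a median of 0.705, against 0.987 for all ORFs of that length. The 21 members under 500 bp had a median of 0.944, against 0.966 for all ORFs of that length. Across the 39 members, the log2 WT ratio and log2 length had a Pearson correlation of -0.51 and a Spearman correlation of -0.56, against 0.06 and 0.12 across all ORFs. This describes genes read from the same track, which are not independent replicates.

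The ratio cannot be read as a rate of transcription. The 17 glycolytic genes, several of which as background are among the most strongly transcribed in glucose, had a median ORF ratio of 0.613 in WT. All 17 lay below the median of all ORFs. For that reason no order of transcription was read from the levels of the respiratory chain genes.

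**Figure D1:**
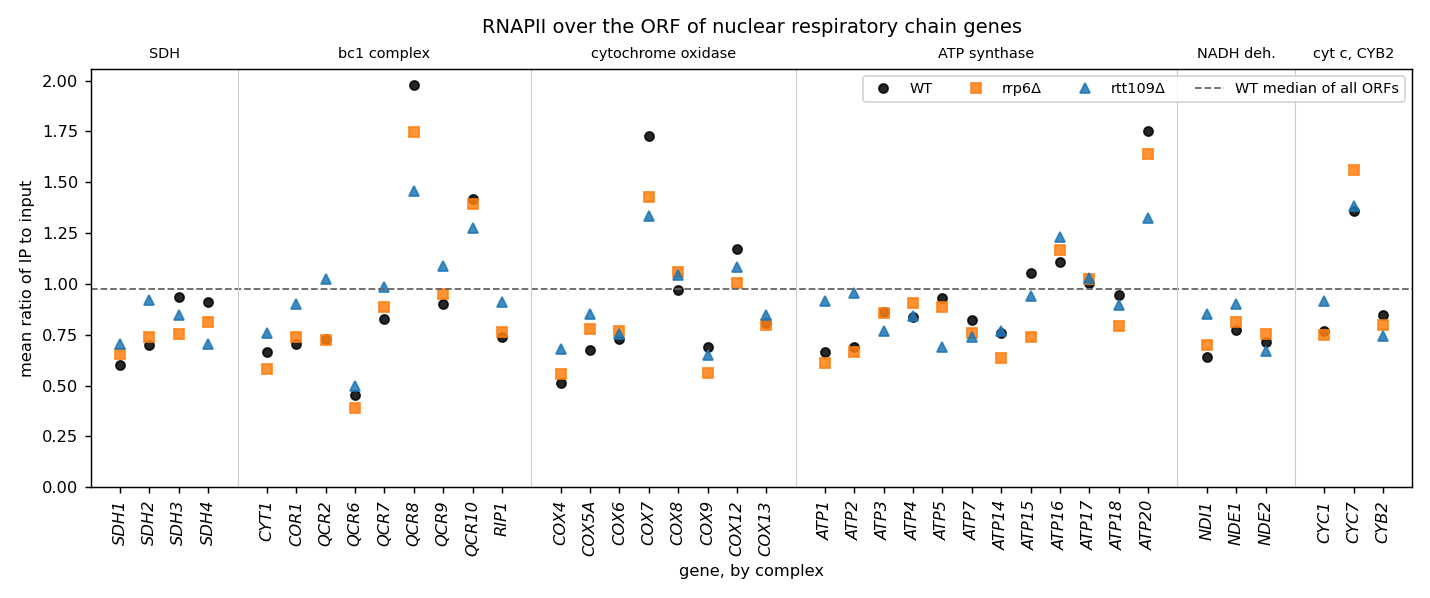
Mean ratio of IP to input over the ORF (vertical axis, linear from 0) of each of the 39 respiratory chain genes, grouped by complex along the horizontal axis, with 1 point for each of the 3 tracks. QCR8, at 1.98 in WT, and ATP20, at 1.75, stand at the top, QCR6, at 0.452, at the bottom, and most genes lie below 1.

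In *rtt109Δ* the respiratory chain genes went in both directions over their ORFs. Past 1.3-fold, the limit used in the study, 6 members were higher than in WT and 3 were lower. Among all ORFs 8.74% were higher and 9.53% lower by the same limit. The members had a median log2 ratio of 0.04 between *rtt109Δ* and WT, all ORFs one of -0.05, and 24 of the 39 members lay above 0, or 61.5%, against 43.3% of all ORFs. The 6 higher members were *ATP1*, *ATP2*, *QCR2*, *NDI1*, *COX4* and *SDH2*, which come from all 5 complexes or classes. The 3 lower members, *QCR8*, *ATP5* and *ATP20*, come from cytochrome bc1 and the ATP synthase, to which *QCR2*, *ATP1* and *ATP2* among the higher also belong.

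Succinate dehydrogenase, which oxidises succinate in the citric acid cycle and reduces coenzyme Q, had a median ORF ratio of 0.807 in WT. Its iron-sulfur subunit gene *SDH2* (chromosome XII, 53131 to 53931, minus strand) had 0.702 in WT, 0.737 in *rrp6Δ* and 0.921 in *rtt109Δ*, a log2 ratio of *rtt109Δ* to WT of 0.39. The *rtt109Δ* track was the higher in 13 of its 16 windows. *SDH1*, for the flavoprotein subunit, had the lowest WT level of the 4, with 0.601 in WT, 0.654 in *rrp6Δ* and 0.705 in *rtt109Δ*, and did not pass the limit. The membrane anchor genes were on the other side of WT: *SDH3*, the highest of the 4 in WT, had 0.937 in WT, 0.754 in *rrp6Δ* and 0.848 in *rtt109Δ*. *SDH4* had 0.912 in WT, 0.811 in *rrp6Δ* and 0.704 in *rtt109Δ*, a log2 ratio of -0.37 that was just short of the limit. The catalytic pair lay above WT in *rtt109Δ* and the anchor pair below it.

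In the cytochrome bc1 complex, which passes electrons from coenzyme Q to cytochrome c, 7 of 9 genes lay above WT in *rtt109Δ* and the median log2 ratio was 0.25. *QCR2* (chromosome XVI, 919381 to 920487, plus strand), for a core subunit, had 0.729 in WT, 0.723 in *rrp6Δ* and 1.03 in *rtt109Δ*, a log2 ratio of 0.49. It was higher in *rtt109Δ* in all 22 of its windows, 11 of which do not overlap each other. Its partner core gene *COR1* had 0.705 in WT, 0.737 in *rrp6Δ* and 0.903 in *rtt109Δ*, and its log2 ratio of 0.36 did not reach the limit. The Rieske iron-sulfur gene *RIP1* (log2 ratio 0.30) and the cytochrome c1 gene *CYT1* (0.19) lay on the same side, as did the small subunit genes *QCR7* (0.25), *QCR9* (0.27) and *QCR6* (0.15), while *QCR10* stood at -0.15. *QCR8* (chromosome X, 106434 to 106718, plus strand) was the member of the complex farthest below WT, with 1.98 in WT, 1.75 in *rrp6Δ* and 1.46 in *rtt109Δ*. Its log2 ratio was -0.44, it was lower in all 6 of its windows, and it still had the highest level of the 39 in each of the 3 tracks.

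Cytochrome oxidase, which reduces oxygen, had a median log2 ratio of 0.06 over its 8 nuclear genes, 5 of which lay above WT in *rtt109Δ*. *COX4* (chromosome VII, 149704 to 150171, minus strand), for a subunit exposed to the matrix, had 0.512 in WT, 0.557 in *rrp6Δ* and 0.679 in *rtt109Δ*, a log2 ratio of 0.41 over 9 windows. It had the lowest WT level of the complex. At the other end *COX7*, for a small subunit, had 1.73 in WT, 1.43 in *rrp6Δ* and 1.33 in *rtt109Δ*, and at a log2 ratio of -0.38 it was the member closest to the limit from inside. The aerobic isoform gene *COX5A* had 0.674 in WT, 0.778 in *rrp6Δ* and 0.853 in *rtt109Δ*. Another 5 genes, *COX6*, *COX8*, *COX9*, *COX12* and *COX13*, had WT ratios from 0.689 over *COX9* to 1.17 over *COX12*, and log2 ratios of *rtt109Δ* to WT from -0.11 to 0.11. The hypoxic counterpart of *COX5A*, *COX5B*, lies on chromosome IX, which was not analysed here.

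The ATP synthase genes lay on both sides of WT, 2 past the limit in each direction, with a median log2 ratio of -0.03. *ATP1* (chromosome II, 37053 to 38690, plus strand), for the alpha subunit of the catalytic head, had 0.665 in WT, 0.609 in *rrp6Δ* and 0.917 in *rtt109Δ*, a log2 ratio of 0.46 with 29 of 32 windows higher. *ATP2* (chromosome X, 647607 to 649142, plus strand), for the beta subunit, had 0.690 in WT, 0.666 in *rrp6Δ* and 0.956 in *rtt109Δ*, a log2 ratio of 0.47 with 28 of 30 windows higher. These catalytic subunit genes had the lowest WT levels among the 12. *ATP5* (chromosome IV, 1058176 to 1058814, minus strand), for the subunit that joins the head to the peripheral stalk, had 0.931 in WT, 0.885 in *rrp6Δ* and 0.692 in *rtt109Δ*, a log2 ratio of -0.43, and was lower in all 13 of its windows. *ATP20* (chromosome XVI, 599870 to 600217, plus strand), for a membrane subunit that takes part in dimer formation, had 1.75 in WT, 1.64 in *rrp6Δ* and 1.32 in *rtt109Δ*, a log2 ratio of -0.41, and was lower in all 7 of its windows. Of the other 8 genes, *ATP3*, *ATP7*, *ATP15* and *ATP18* lay below WT in *rtt109Δ*, and *ATP4*, *ATP14*, *ATP16* and *ATP17* above it, with log2 ratios from -0.17 to 0.15 and WT levels from 0.761 over *ATP14* to 1.11 over *ATP16*.

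The NADH dehydrogenases differed by gene. *NDI1* (chromosome XIII, 28266 to 29807, minus strand), for the enzyme that oxidises NADH on the matrix side, had 0.639 in WT, 0.699 in *rrp6Δ* and 0.852 in *rtt109Δ*, a log2 ratio of 0.42, with *rtt109Δ* the higher in all 31 windows. *NDE1* and *NDE2* code for enzymes that oxidise cytosolic NADH at the outer face of the inner membrane. *NDE1* had 0.775 in WT, 0.812 in *rrp6Δ* and 0.903 in *rtt109Δ*. *NDE2* had 0.715 in WT, 0.753 in *rrp6Δ* and 0.672 in *rtt109Δ*, which put the isoforms on opposite sides of WT in *rtt109Δ* and neither passed the limit.

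The cytochrome c genes differed in level, and neither passed the limit over its ORF. *CYC1*, for the main aerobic isoform, had 0.768 in WT, 0.748 in *rrp6Δ* and 0.918 in *rtt109Δ* over its ORF. *CYC7*, for the isoform favoured in hypoxia, had 1.36 in WT, 1.56 in *rrp6Δ* and 1.38 in *rtt109Δ*. Over the ORF *CYC7* was therefore the higher of the isoform genes in every track. Upstream *CYC1* was the higher in WT, at 2.08 against 1.60, and in *rtt109Δ*, at 2.22 against 1.57. In *rrp6Δ* *CYC7* was the higher upstream, at 1.54 against 1.37. *CYB2*, for the lactate dehydrogenase that reduces cytochrome c, had 0.848 in WT, 0.796 in *rrp6Δ* and 0.746 in *rtt109Δ*.

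**Figure D2:**
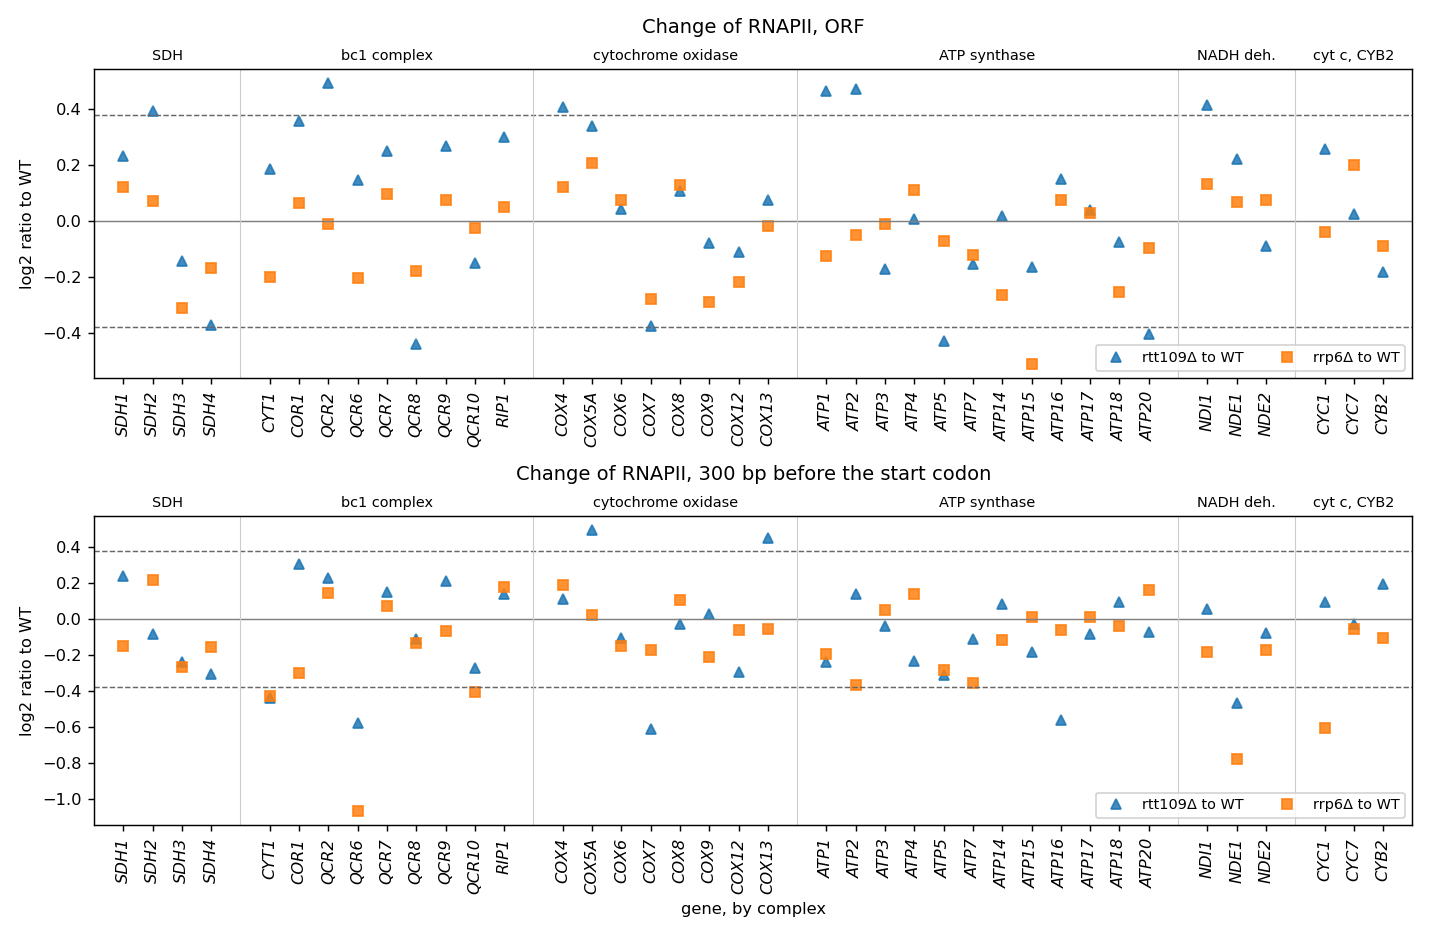
Log2 ratio of each mutant track to WT (vertical axis) for the 39 respiratory chain genes by complex (horizontal axis), over the ORF and over the 300 bp upstream, with the limits of 1.3-fold as lines. Over the ORF QCR2, at 0.49, and QCR8, at -0.44, mark the extremes in rtt109Δ, and upstream QCR6, at -1.07, is the lowest in rrp6Δ.

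The difference between high and low members in *rtt109Δ* went with their level. Across the 39 members, log2 ratio of *rtt109Δ* to WT and log2 WT level had a Pearson correlation of -0.68 and a Spearman correlation of -0.69, but WT enters both quantities. Against the level in *rrp6Δ*, a track that enters neither side of the ratio, the correlations were -0.51 and -0.53 for the members and -0.57 and -0.60 for all 5781 ORFs. All of these values share the same input library.

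When all ORFs were divided into 10 bins of equal size by their *rrp6Δ* level, the median change in *rtt109Δ* went from 0.30 in the lowest bin to -0.29 in the highest. The lowest 3 bins held 25 of the 39 members. Set beside the median of their own bin, 19 of 39 members lay above it, with a median difference of -0.01, so the respiratory chain genes as a group sat where ORFs of their level sat. Among the 11 members of at least 900 bp, 7 lay above the median of their bin, with a median difference of 0.12.

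**Figure D3:**
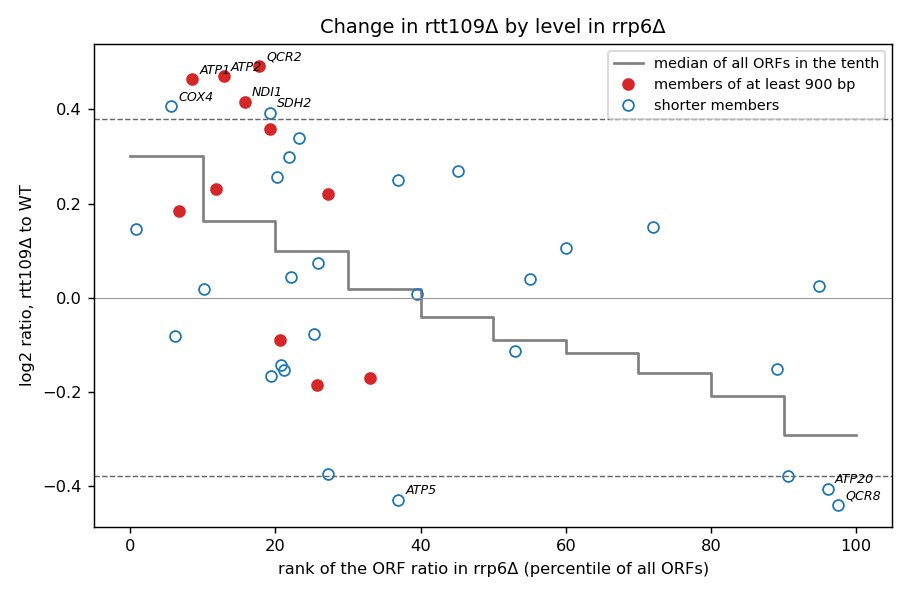
Log2 ratio of rtt109Δ to WT over the ORF (vertical axis) against the percentile of the ORF ratio in rrp6Δ among all ORFs (horizontal axis), with respiratory chain genes of at least 900 bp as filled points and shorter ones as open points, the medians of all ORFs in 10 bins of level as a stepped line and the limits of 1.3-fold as dashed lines. The line runs from 0.30 down to -0.29, and 19 of the 39 genes lie above the median of their bin.

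The longer members held 4 of the 6 that were higher in *rtt109Δ*. Of the 11 members of at least 900 bp, 8 lay above WT, 4 passed the limit and 0 were lower by it. Their median log2 ratio was 0.23, against -0.05 for all 3798 ORFs of at least 900 bp. Of those 3798, 1619 lay above WT and 8.32% were higher by the limit. These 11 genes are *SDH1*, *CYT1*, *COR1*, *QCR2*, *ATP1*, *ATP2*, *ATP3*, *NDI1*, *NDE1*, *NDE2* and *CYB2*, and all but *ATP3*, *NDE2* and *CYB2* lay above WT. Short ORFs rest on few windows, and 20 members had fewer than 10. Among all ORFs under 500 bp 12.3% were higher and 13.9% lower in *rtt109Δ*, so a value past the limit was more common there than among ORFs of at least 900 bp, of which 8.00% were lower.

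Along most of the long members the *rtt109Δ* track stood above WT. With each ORF cut into 3 stretches of equal length, the median log2 ratio was 0.31 at the 5′ end, 0.42 in the centre and 0.17 at the 3′ end, and 8, 8 and 7 of the 11 genes lay above WT in these stretches. For all 3798 ORFs of at least 900 bp these medians were 0.06, -0.02 and -0.13, and 2207, 1805 and 1238 of them lay above WT. *ATP2* followed this pattern, with 0.602 in WT and 0.933 in *rtt109Δ* at its 5′ end, 0.528 and 0.851 in the centre, and 0.939 and 1.08 at its 3′ end. *ATP3*, *NDE2* and *CYB2* lay below WT in every stretch, and *CYB2* had 0.720 in WT and 0.718 in *rtt109Δ* at its 5′ end and 0.964 and 0.750 at its 3′ end. These stretches were not matched for level, and in WT the ORF means of all 11 genes lay below the median of all ORFs.

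The mean profile of the long members was highest in the 100 bp before the start codon. At 100 bp before it the mean stood at 2.08 in WT, 1.72 in *rrp6Δ* and 1.90 in *rtt109Δ*, and without *NDE1*, left out after its window there was seen to have 5.73 in WT, the means over 10 genes were 1.71, 1.53 and 1.74. At 50 bp before it, where *NDE1* has no window, they were 1.73, 1.60 and 1.71. At 300 bp into the ORF, the lowest point of the profile in WT, the mean of the long members had dropped to 0.505 in WT, 0.583 in *rrp6Δ* and 0.703 in *rtt109Δ*. For all ORFs of at least 900 bp the same positions had 1.92 and 0.856 in WT, so the long respiratory chain genes were lower inside the ORF.

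**Figure D4:**
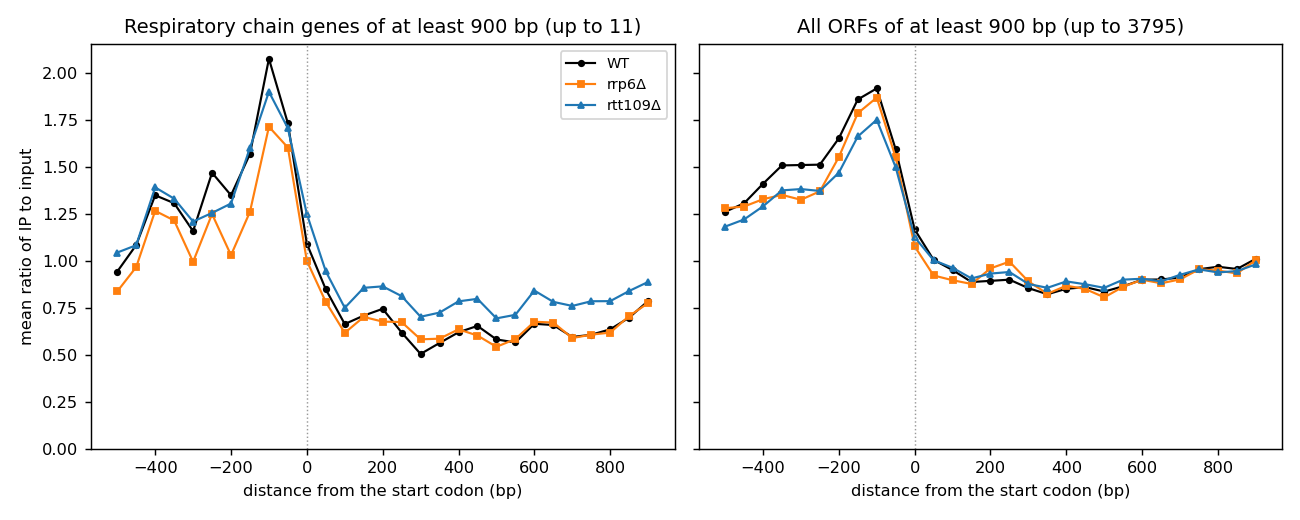
Mean ratio of IP to input (vertical axis, linear from 0) by distance from the start codon in bp (horizontal axis), for the 11 respiratory chain genes and for all ORFs of at least 900 bp, with 1 line per track. Inside the ORF of the respiratory chain genes the rtt109Δ line runs above WT, at 0.703 against 0.505 at 300 bp, where the gap is widest, and at 0.751 against 0.664 at 100 bp.

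In *rrp6Δ* the ORFs of the respiratory chain genes were close to WT. Past 1.3-fold 1 of 39 members was lower and 0 were higher, against 1.82% and 0.709% of all ORFs. The median log2 ratio was -0.02 for the members and 0.01 for all ORFs. The lower member was *ATP15*, for the epsilon subunit of the ATP synthase, with 1.05 in WT, 0.739 in *rrp6Δ* and 0.939 in *rtt109Δ*, a log2 ratio of *rrp6Δ* to WT of -0.51. It is 189 bp long and was covered by 4 windows, and 8.67% of all ORFs under 500 bp were lower in *rrp6Δ* by the same limit. Both comparisons use the WT track, so the values of the mutants were also set against each other. The log2 ratio of *rtt109Δ* to *rrp6Δ* was 0.59 over *ATP1*, 0.52 over *ATP2* and 0.50 over *QCR2*, so these 3 genes stood past the limit against either other track, whereas *SDH2* (0.32), *COX4* (0.29) and *NDI1* (0.28) did not. None of the 3 lower members passed it there, with -0.26 for *QCR8*, -0.36 for *ATP5* and -0.31 for *ATP20*. *CYT1*, within the limit against WT over its ORF, passed it against *rrp6Δ*, at 0.39. How many of all ORFs passed the limit between the mutants was not counted.

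Upstream of the start codon the respiratory chain genes had the level of other genes. Their median upstream ratio was 1.41 in WT, the same as the 1.41 of all 5776 upstream regions measured. In WT 37 of the 39 members were higher upstream than over the ORF, and 33 were so in all 3 tracks, or 94.9% and 84.6%, against 82.9% and 75.6% of all genes measured in both regions. The median of upstream over ORF was 1.61 for the members and 1.49 for all ORFs. *COX7* had the highest upstream ratio in WT, at 3.22, followed by *CYT1* at 3.15, and *QCR6* had the lowest, at 0.590.

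**Figure D5:**
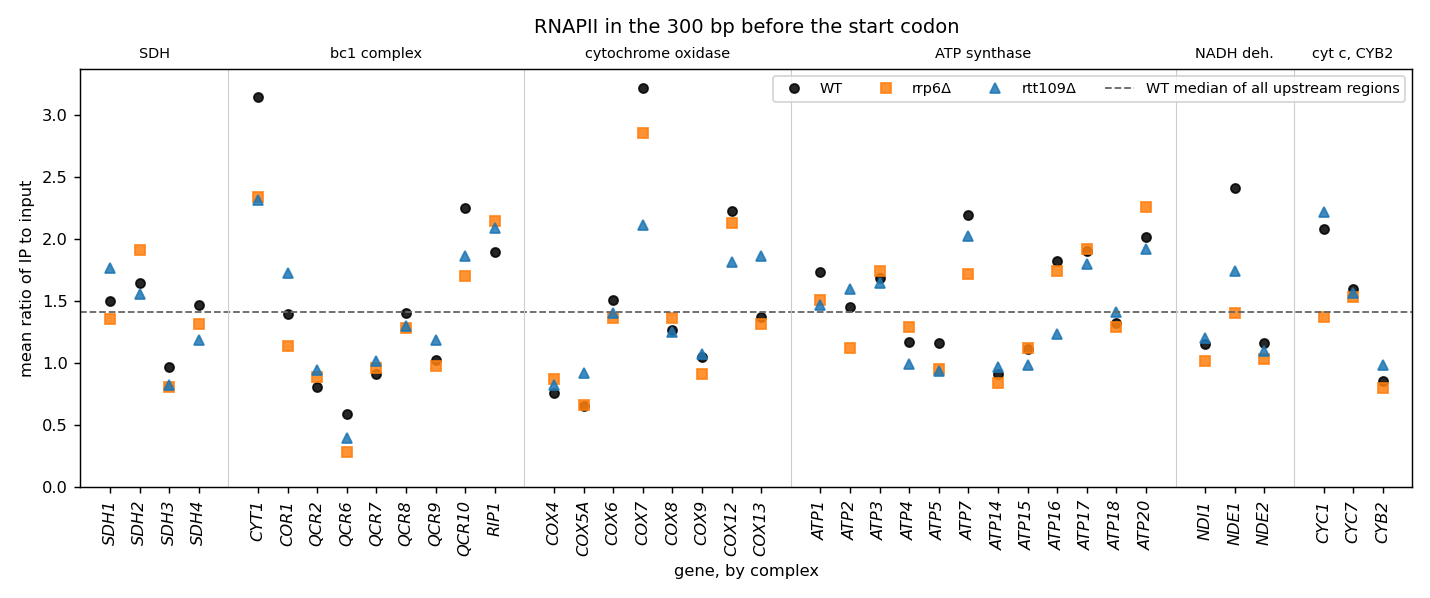
Mean ratio of IP to input over the 300 bp before the start codon (vertical axis, linear from 0) of the 39 respiratory chain genes by complex (horizontal axis), with 1 point per track. COX7, at 3.22 in WT, and CYT1, at 3.15, stand highest, and the median in WT is 1.41.

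In *rtt109Δ* 5 members were lower upstream by more than 1.3-fold and 2 were higher, while 16.8% of all upstream regions were lower and 8.60% higher. The median log2 ratio was -0.07 for the members and -0.06 for all regions. In *rrp6Δ* 5 members were lower and 0 were higher, against 5.16% and 0.814% of all upstream regions. There 27 of 39 lay below WT, or 69.2%, close to the 67.6% of all regions, and the median log2 ratio was -0.12, against -0.08 for all regions. *CYT1*, *QCR6* and *NDE1* were lower in both mutants, which share their WT track, and 0 members passed the limit both upstream and over the ORF in *rtt109Δ*. Of the 39 genes, 20 passed it nowhere. For none of these overlaps was the share over all ORFs counted, so they are not read as a trait of the members.

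*QCR6* stood apart upstream. There it had 0.590 in WT, 0.282 in *rrp6Δ* and 0.395 in *rtt109Δ*. On the log2 scale *rrp6Δ* stood at -1.07 to WT, the lowest of all 5776 upstream regions in that comparison, and *rtt109Δ* at -0.58. In the window centred 231 bp before the start codon (chromosome VI, 224951 to 225050) WT had 0.659, *rrp6Δ* 0.139 and *rtt109Δ* 0.184. The window nearest the start codon had 0.786 in WT, 0.550 in *rrp6Δ* and 0.740 in *rtt109Δ*. Differences were thus larger in distal windows than in proximal ones. The region reaches into the end of *PHO4*, whose ORF stops 250 bp upstream. The ratios of all 6 windows were below 1 in every track.

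*NDE1* had 2.41 in WT, 1.40 in *rrp6Δ* and 1.74 in *rtt109Δ* upstream, log2 ratios to WT of -0.78 and -0.46. Only 4 windows were present there, and 1 of them, centred 125 bp before the start codon, had 5.73 in WT, 3.56 in *rrp6Δ* and 3.56 in *rtt109Δ*. That window therefore sets most of the mean. *CYT1*, whose nearest upstream ORF is *YNG1*, 700 bp away and divergent, had 3.15 in WT, 2.34 in *rrp6Δ* and 2.32 in *rtt109Δ*, log2 ratios of -0.43 and -0.44, and was lower than WT in all 6 windows in both mutants. Over its ORF the same gene had 0.667 in WT, 0.581 in *rrp6Δ* and 0.759 in *rtt109Δ*.

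*CYC1* passed the limit upstream in *rrp6Δ* and not in *rtt109Δ*, with 2.08 in WT, 1.37 in *rrp6Δ* and 2.22 in *rtt109Δ*, a log2 ratio of *rrp6Δ* to WT of -0.60. All 6 windows were lower in *rrp6Δ*, and 3 of the 6 were higher in *rtt109Δ*. *QCR10*, for a small subunit of cytochrome bc1, had 2.25 in WT, 1.70 in *rrp6Δ* and 1.86 in *rtt109Δ*, a log2 ratio of *rrp6Δ* to WT of -0.40. Neither gene had an ORF ratio past the limit in either mutant.

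*COX7* and *ATP16* were lower upstream in *rtt109Δ*. *COX7* had 3.22 in WT, 2.86 in *rrp6Δ* and 2.11 in *rtt109Δ*, a log2 ratio of *rtt109Δ* to WT of -0.61. The difference was concentrated in distal windows, and the window centred 223 bp before the start codon had 7.30 in WT, 7.23 in *rrp6Δ* and 3.60 in *rtt109Δ*. *ATP16*, for the delta subunit of the ATP synthase, had 1.82 in WT, 1.75 in *rrp6Δ* and 1.23 in *rtt109Δ*, a log2 ratio of -0.56. Of its 5 windows the most distal, centred 229 bp before the start codon, held most of the difference, with 5.36 in WT, 4.56 in *rrp6Δ* and 3.0 in *rtt109Δ*.

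Both upstream regions that were higher in *rtt109Δ* belong to cytochrome oxidase. *COX5A* had 0.655 in WT, 0.665 in *rrp6Δ* and 0.920 in *rtt109Δ*, a log2 ratio of 0.49, and was higher in all 6 windows. *COX13* had 1.37 in WT, 1.32 in *rrp6Δ* and 1.87 in *rtt109Δ*, a log2 ratio of 0.45, and was higher in 4 of its 6 windows. In the window centred 58 bp before the start codon it had 1.81 in WT, 1.67 in *rrp6Δ* and 3.06 in *rtt109Δ*.

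Other genes of respiration were measured in the same way for comparison. Of 81 genes of the citric acid cycle, of further subunits and carriers, of coenzyme Q synthesis, of assembly and of regulation, 10 were lower and 9 higher over the ORF in *rtt109Δ*, with a median log2 ratio of -0.03. These are 12.3% and 11.1%, near the 9.53% and 8.74% of all ORFs. In the citric acid cycle 9 of 10 genes lay above WT, against 43.3% of all ORFs, with a median of 0.12. Of these, 1 passed the limit, *ACO1* for aconitase at 0.42. Among 10 further subunits and carriers 3 were higher, 1 was lower and the median log2 ratio was -0.05, with 4 of 10 above WT. *POR1*, for the outer membrane porin, had 0.606 in WT, 0.613 in *rrp6Δ* and 0.899 in *rtt109Δ*, a log2 ratio of 0.57. *PET9*, for the main ADP/ATP carrier, had a log2 ratio of 0.50, and *MIR1*, for the phosphate carrier, of 0.41, while the other ADP/ATP carrier genes, *AAC1* at 0.26 and *AAC3* at -0.03, did not pass the limit. In that list *ATP19*, for a small membrane subunit of the ATP synthase, was lower at -0.40, and *STF1*, for a factor that acts with the ATP synthase inhibitor, was the only one past the limit in *rrp6Δ*, at 0.43.

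Among 10 coenzyme Q genes 2 were lower in *rtt109Δ*, *COQ4* at -0.57 and *COQ9* at -0.40, and 0 were higher. Among 45 assembly genes 7 were lower and 4 higher, or 15.6% and 8.89%, against 9.53% and 8.74% of all ORFs. The lower ones were led by *PET111* at -0.49 and *AEP1* at -0.47, which act on the expression of mitochondrially encoded subunits. The higher ones were *COX19* at 0.73, *COX23* at 0.49, the heme lyase gene *CYC3* at 0.46 and *COX17* at 0.40, and *COX17*, *COX19* and *COX23* code for small proteins of copper delivery or cytochrome oxidase assembly. In *rrp6Δ* *CYC3*, at -0.60, and *COX17*, at -0.49, were lower. Of 6 regulators *ROX1*, the hypoxic repressor, passed the limit over the ORF, at 0.46 in *rtt109Δ*. Upstream *HAP4*, the inducible subunit of the Hap complex, stood at -0.52 in *rtt109Δ*, and in *rrp6Δ* *HAP1* stood at -0.73, *ROX1* at -0.69 and *HAP2* at 0.43.

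The glycolytic genes differed more from WT in *rtt109Δ* than the respiratory chain genes did. In *rtt109Δ* 15 of 17 were higher past the limit and 0 were lower, with a median log2 ratio of 0.64, against 6 and 3 of the 39 respiratory chain genes and a median of 0.04. *CDC19*, for pyruvate kinase, was highest at 1.09. *CDC19* and *CYC3* lie on chromosome I, where 40 of 94 ORFs, or 42.6%, were higher in *rtt109Δ* past the limit, and no respiratory chain gene described here lies on that chromosome. The 66 mitochondrial ribosomal protein genes had 9 lower and 2 higher, or 13.6% and 3.03%, with a median of -0.10. Among all ORFs 9.53% were lower and 8.74% higher. These are counts and medians of single tracks, and the difference between the groups was not tested.

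The split between higher and lower members in *rtt109Δ* moved with the scaling of the tracks. With each track divided by its mean over all windows in place of its median, 9 members were higher and 0 lower over the ORF, with 13.8% of all ORFs higher and 4.03% lower, and the median log2 ratio of the members was 0.14, against 0.04 for all ORFs. At a limit of 1.5-fold in place of 1.3-fold, 0 members were past it over the ORF in either mutant. In *rtt109Δ* 1.70% of all ORFs were then lower and 2.99% higher. Upstream 3 members were lower in *rrp6Δ* and 1 in *rtt109Δ*, against 0.675% and 6.25% of all regions.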

How the data were processed

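Per the deposited tracks, the authors gave for each genotype the ratio of IP to input in 100 bp windows every 50 bp, on 15 chromosomes and in 228888 windows, with the replicates combined. Submitters' processing notes name FastQC, Bowtie2, SAMtools, deepTools, bedtools and the build sacCer3, and chromatin was cut with MNase. How replicates were combined and scaled is not given in the sources used here. Because every track has a median of 1, a change over the whole genome cannot be seen. The depth behind a window is unknown, so no interval or floor is given.

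Genes were placed by the RefSeq R64 annotation, which is of S288C and not W303. Of 6002 ORFs, 214 were on chromosomes not analysed here and 7 had no windows. ORF and upstream means were formed from windows centred in each region, with no pseudocount and no filter, and mutants were compared with WT as log2 ratios with a limit of 1.3-fold. No p-value was computed. The spans of *QCR9* and *QCR10* include an intron, 7 members have an upstream region that overlaps another ORF, and near-identical glycolytic copies (*TDH1* to *TDH3*, *ENO1* and *ENO2*) may share reads. Promoter sequences and motifs were not analysed here. *COX5B*, *KGD1* and *FMC1*, on chromosome IX, were not analysed here.

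Alternatives were track scaling by the mean of all windows or by the median over ORFs or upstream regions, the median over windows, windows wholly inside a region, a limit of 1.5-fold, a pseudocount of 0.487, ORFs of at least median level, regions that overlap no other ORF, the first 500 bp or 200 bp upstream, and leaving out chromosome I. The members and lists were chosen with earlier results of these data known. Genes were named where they passed the limit, where they had the highest or lowest WT level of a complex, or where they formed an isoform pair. Other respiratory and compared genes were named past the limit, at most 5 in each direction per list and mutant. *COR1*, *RIP1*, *SDH4*, *QCR7*, *QCR9*, *COX6*, *COX8*, *COX9*, *COX12*, *AAC1*, *AAC3*, *ATP3*, *ATP4*, *ATP7*, *ATP14*, *ATP17*, *ATP18* and *CYB2* were named in addition after their values were seen. Scripts ran in Python 3.11.15 with pandas 2.3.3 and numpy 2.4.6, with figures from matplotlib 3.10.9, and were tested on simulated data.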

Additional observations from a re-analysis of the deposited data

How the results depend on the processing

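No paired analysis was possible because the deposited tracks already merge the libraries of a genotype, which also kept any library from being left out. Of 122 recomputed counts and medians over the members, 25 moved. A count moved if it changed by more than 1.5-fold, and a median if it left its 95% order-statistic interval over the members. That interval measures the spread between genes, not between replicates. Only counts moved, so this yardstick says little on how stable the medians are. Of 195 values of single members, 44 were no longer past the limit. Of the members past the limit 0 changed sign. Causes were not tested except where fewer genes entered. Over the ORF, the 3 members lower in *rtt109Δ* became 0 with mean scaling, with a limit of 1.5-fold and with the pseudocount, and the 6 higher became 0 with 1.5-fold, with the pseudocount and among ORFs of at least median level, which hold 10 members. The 1 lower in *rrp6Δ* became 0 under these same last 3 settings. *ATP15* and the 6 higher members all lie outside those 10, so their 0 there was fixed by the level filter. Upstream, the 5 lower in *rtt109Δ* became 3 with mean scaling and with the median over windows, 2 with the pseudocount, in ORFs of at least median level and with 200 bp upstream, and 1 with 1.5-fold. The 2 higher became 1 with windows wholly inside, 0 with 1.5-fold, the pseudocount and ORFs of at least median level, and 4 when *rtt109Δ* was given the WT distribution by rank, an alternative chosen after seeing the data. The 5 lower in *rrp6Δ* became 3 with scaling by the median upstream region, with 1.5-fold and with the pseudocount, 1 among ORFs of at least median level and 8 with the median over windows. Upstream counts fell among ORFs of at least median level only because members left, *COX5A* and *COX13* among them. Upstream in *rtt109Δ*, *COX7* had -0.12 with the median over windows, and *QCR6* had -0.11 and *ATP16* -0.24 with 200 bp. The members' median in *rtt109Δ* over the ORF was -0.04 among ORFs of at least median level, and upstream, where it was -0.07, it was 0.02 with mean scaling and 0.03 with the median over windows.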
